A study of Mus musculus with 8 samples.

Results

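The genes described here are 10 neighbours from the Bex, Tceal and Armcx families on the mouse X chromosome: Bex1, Bex2, Bex4, Tceal1, Tceal8, Tceal9, Bhlhb9, Armcx1, Armcx2 and Armcx3. They were chosen by symbol from the 24542 genes of the deposited tables, and chosen from earlier results of these data: Bex2 had looked as if it lost silencing without HDAC3 and Bex4 as if it kept it. The allelic change with DOX of Bex2, Bex4 and Bhlhb9 is therefore given as a description, with no test, and so is the difference between genotypes for all 10 genes. The data are RNA-seq of TX1072 cells, a female mouse embryonic stem cell (ESC) line from a cross of Mus musculus castaneus (Cast) and C57BL/6 (B6). Its B6 X chromosome carries a doxycycline (DOX) inducible Xist gene, so that DOX starts silencing of that X and leaves the Cast X active. The WT cells are this line and the Hdac3KO cells are CRISPR/Cas9 deletion clones made from it, lacking HDAC3, a histone deacetylase. Each genotype was sampled at 0 hr, before DOX, and after 24 hr in 1 µg/ml DOX, all in serum medium with LIF and 2i, which gives 4 groups of 2 samples. The WT samples are duplicates of a single line and the Hdac3KO samples are 2 independent clones, so their spread includes differences between clones, and which of them has which replicate number is not given. The study calls its duplicates biological and does not say whether the WT ones were grown separately, and p values measure only the spread between these samples, which may be technical. In the chromatin experiments a mutant sample held some cells that had lost an X, and whether an RNA sample did too was not given. The median d-score of X-linked genes at 0 hr was 0.503 and 0.481 in the Hdac3KO samples and 0.497 and 0.5 in the WT samples.

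Female cells silence the genes of 1 X chromosome by coating it with Xist RNA, which spreads in cis, and active chromatin marks are then lost. The study reports that most HDAC3 was already on the X before Xist was induced, mainly at putative enhancers. The Bex genes ("brain expressed X-linked") encode small proteins that bind signalling partners, and Bex3 is known as a partner of the p75 neurotrophin receptor. The Tceal genes encode short proteins that resemble the transcription elongation factor TFIIS. The Armcx genes encode armadillo-repeat proteins, several of which sit on mitochondria and take part in their movement along axons. Bhlhb9 belongs, despite its name, with the Armcx and Gprasp proteins, and the Gprasp proteins bind G-protein-coupled receptors.

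The copies in this cluster are alike in sequence, which bears on how far a read can be told from that of a neighbour. The 250 bases before the starts of 4 Bex genes are printed here 5′ to 3′ from RefSeq (GRCm38.p6) to show this. Capitals mark the run that Bex1 and Bex4, or Bex2 and Bex3, share without a mismatch. The windows are chrX:136215514-136215763 (minus strand) for Bex1, chrX:136138746-136138995 (plus strand) for Bex4, chrX:136068237-136068486 (minus strand) for Bex2 and chrX:136270003-136270252 (plus strand) for Bex3, which is not among the 10 genes.
Bex1: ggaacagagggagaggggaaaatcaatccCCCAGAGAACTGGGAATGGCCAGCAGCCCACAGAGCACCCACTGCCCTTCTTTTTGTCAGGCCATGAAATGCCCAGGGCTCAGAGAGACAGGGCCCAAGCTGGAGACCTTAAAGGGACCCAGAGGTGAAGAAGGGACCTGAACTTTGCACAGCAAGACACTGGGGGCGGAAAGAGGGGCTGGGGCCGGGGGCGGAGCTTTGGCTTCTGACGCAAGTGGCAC
Bex4: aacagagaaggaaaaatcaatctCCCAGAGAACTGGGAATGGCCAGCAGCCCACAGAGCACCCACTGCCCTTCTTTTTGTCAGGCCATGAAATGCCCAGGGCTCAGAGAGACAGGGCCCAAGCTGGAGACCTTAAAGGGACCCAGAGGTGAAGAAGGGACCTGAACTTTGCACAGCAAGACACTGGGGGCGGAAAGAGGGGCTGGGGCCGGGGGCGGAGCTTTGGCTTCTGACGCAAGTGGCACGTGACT
Bex2: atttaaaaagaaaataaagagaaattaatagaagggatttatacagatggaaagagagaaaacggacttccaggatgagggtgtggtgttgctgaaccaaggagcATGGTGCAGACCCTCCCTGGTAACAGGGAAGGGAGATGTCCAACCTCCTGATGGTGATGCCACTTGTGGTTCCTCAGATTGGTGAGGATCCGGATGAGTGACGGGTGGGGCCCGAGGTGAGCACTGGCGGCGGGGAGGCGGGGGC
Bex3: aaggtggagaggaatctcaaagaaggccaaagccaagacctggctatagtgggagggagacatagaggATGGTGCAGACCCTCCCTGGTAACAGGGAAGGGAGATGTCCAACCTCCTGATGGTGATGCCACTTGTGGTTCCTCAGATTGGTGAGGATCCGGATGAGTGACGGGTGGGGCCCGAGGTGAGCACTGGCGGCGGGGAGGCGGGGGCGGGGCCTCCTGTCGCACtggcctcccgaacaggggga
The run shared by Bex1 and Bex4 was 271 bases long and reached past both starts. The run shared by Bex2 and Bex3 was 162 bases long. The next longest run between 2 of the 10 genes, in Tceal8 and Tceal9, had 17 bases. RefSeq windows of 250 bases before and 50 bases after the start were held for 9 of the 10 genes, all but Armcx3. The E-box letters CACGTG, read on both strands, were in 5 of the 9 windows (Bex1, Bex4, Tceal1, Tceal8 and Armcx1) and in 7.15% of 32851 windows of all genes. The GC box letters GGGCGG were in 6 of 9 (Bex1, Bex2, Bex4, Tceal8, Tceal9 and Bhlhb9) and in 35.7% of all windows. In Bex1 and Bex4 both the E-box and the GC box letters occur in the shared run, so these windows are not independent matches. The letters TATAAA were in the Bex2 window alone among the 9, and in 13.6% of all windows. None of these motifs contains another, and a match is a description of the window only.

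The transcripts were less alike than these windows. When a transcript of Bex1 was aligned with one of Bex4, 76% of 801 aligned bases were identical. For Bex1 with Bex2 it was 87% of 716, and for Bex2 with Bex3 77.1% of 782. Of the 100-base stretches of the Bex4 transcript in GENCODE M21, 26% also occurred in other genes, mostly in Bex1, and 12.3% of those of Bex1 occurred elsewhere, mostly in Bex4. The figures were 8.71% for Bex2 (most often Bex3, but not Bex3 alone), 6.44% for Bhlhb9 (mostly Gprasp2) and 25.2% for Armcx3 (mostly Gm9299). For Tceal1, Tceal8, Tceal9, Armcx1 and Armcx2 no such stretch was shared. The authors kept 1 alignment for each read, so counts of Bex1, Bex4, Bex2, Bhlhb9 and Armcx3 are less certain than those of the other genes. Bex1 also overlaps Tceal7 on the opposite strand, and the authors counted reads by strand. On its own strand Bhlhb9 spans Gprasp2 and overlaps the end of Gprasp1. In GENCODE M21 (GRCm38) the genes lie on chromosome X in the order Armcx1 (134717963 to 134721917), Armcx3 (134756595 to 134761455), Armcx2 (134804145 to 134809221), Bhlhb9 (135797594 to 135891081), Bex2 (136066564 to 136068236), Bex4 (136138996 to 136140443), Tceal8 (136168984 to 136172342), Bex1 (136213972 to 136215513), Tceal9 (136245079 to 136247139) and Tceal1 (136707982 to 136711478). The first and last starts are 1.99 Mb apart.

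The tables held 6940375 to 17125156 reads on genes per sample, and about 30% of them carried a strain difference. Hdac3 was at 37.7 to 42.7 CPM (reads per 1000000 reads of the sample, with TMM-normalized totals) in the WT samples and at 5.55 to 7.48 CPM in the Hdac3KO samples, where transcripts of the targeted gene remained. Xist at 0 hr was at 10.2 and 7.15 CPM in the WT samples and at 17.5 and 17.1 in the Hdac3KO samples. This was a log2 difference of 0.99 ± 0.21 (SE, edgeR's quasi-likelihood test, adjusted p = 0.023). The B6 share of Xist allelic reads at 0 hr was 85.4% of 82 in WT and 50.55% of 182 in Hdac3KO. Whether this baseline bears on the silencing below was not tested. After DOX Xist was at 1563 to 2053 CPM. All 8 ESC markers, Pou5f1 and Nanog among them, were above 1 TPM in every group, with a summed level of 4703 to 6123 TPM. The summed neural markers (6 genes) were at 78.6 to 104 TPM in WT and at 33.7 to 53.7 in Hdac3KO. Their part in the results below was not tested.

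Before DOX the 10 genes spanned a wide range of levels, which were set side by side per length as TPM (reads per base of transcript, scaled to a sum of 1000000 in each sample; mean ± SD, n = 2). In WT at 0 hr Bex1 stood at 731 ± 33.8 TPM and Bex4 at 663 ± 76.8, and their samples overlapped. Tceal9 followed at 457 ± 30.6, Tceal8 at 260 ± 11.2, Armcx1 at 81.4 ± 4.40, Bex2 at 50.4 ± 7.14, Bhlhb9 at 21.9 ± 2.74 and Armcx2 at 8.94 ± 1.84. Tceal1 at 1.98 ± 0.53 and Armcx3 at 1.56 ± 0.42 were near the detection limit and overlapped. Bex3, the copy most like Bex2 in promoter sequence, was higher than all 10, at 1663 ± 150 TPM. The plot of total levels shows the same order in the Hdac3KO samples apart from Armcx1, which lay below Bex2 there.

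**Figure D1:**
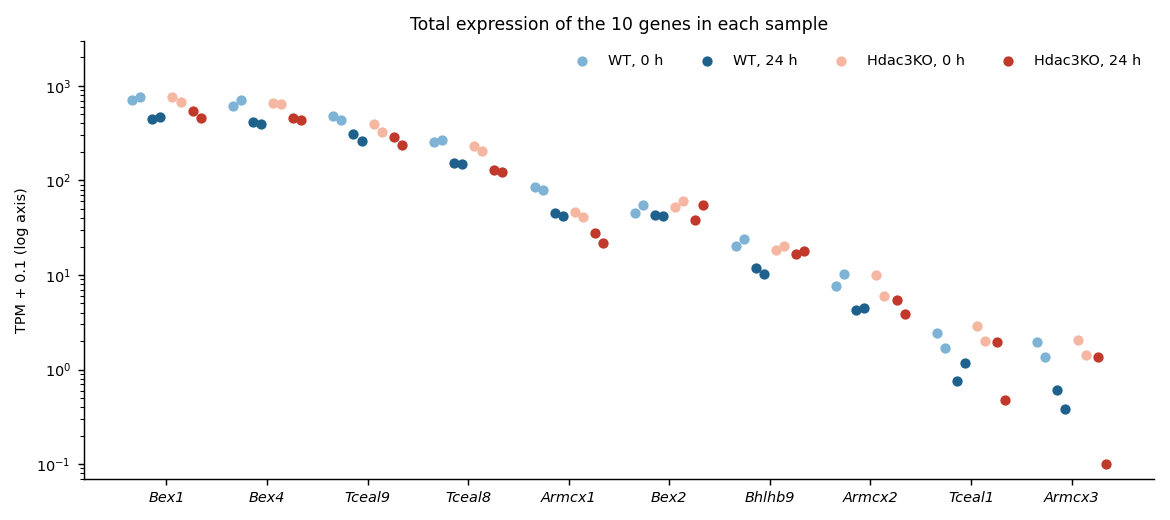
Total expression of each gene in each sample as TPM + 0.1 on a log axis, coloured by group. The levels run from about 731 TPM for Bex1 to under 2 TPM for Armcx3, and the WT points at 24 hr lie below those at 0 hr for every gene, by the least for Bex2.

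The question asked of the alleles is how far the B6 copy of each gene fell after Xist was induced and whether this took HDAC3. The measure is the d-score, the B6 share of the reads that could be assigned to an allele (B6/(B6+Cast)), which is 0.5 when both alleles are equal. Of the 10 genes, 8 had at least 10 allelic reads in all 8 samples. Tceal1 (1 to 19 allelic reads per sample) and Armcx3 (0 to 5) did not and carry no allelic result. Intervals below are exact Clopper-Pearson intervals of 95% on the reads of both samples of a group. They cover counting error only, since reads were not collapsed to molecules.

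**Figure D2:**
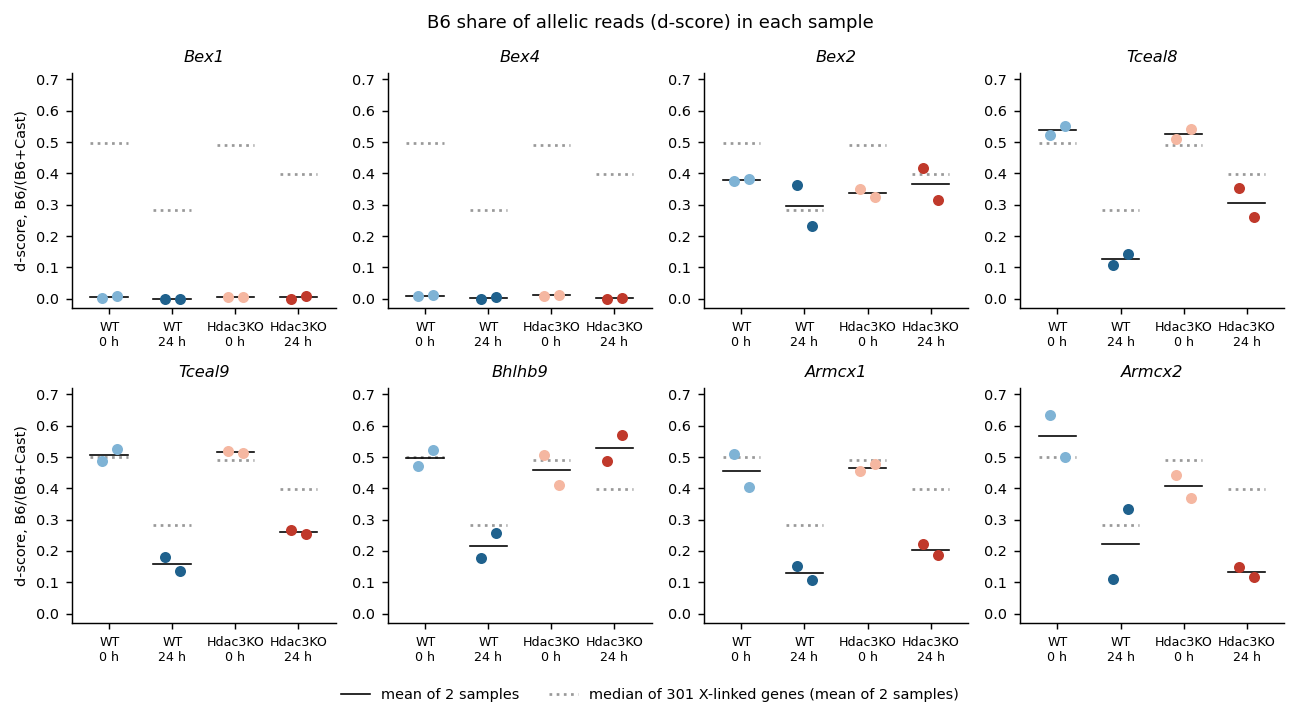
The d-score of the 8 measured genes in each of the 8 samples (points), with the mean of each group (black line) and the mean of the X-wide median (dotted line). Bex1 and Bex4 lie near 0 in every sample, Bex2 stays between 0.231 and 0.417, and Tceal8, Tceal9, Armcx1 and Armcx2 lie lower after DOX in both genotypes, while for Bhlhb9 the times overlap in Hdac3KO.

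Bex1 and Bex4 gave almost no B6 reads even before DOX. Bex1 had 2 B6 reads of 641 allelic reads and 5 of 629 in the WT samples at 0 hr, and 0 of 313 and 0 of 241 after 24 hr. In the Hdac3KO samples it had 4 of 881 and 2 of 542 at 0 hr, and 0 of 372 and 3 of 319 after DOX. Every Bex1 sample thus lay under 1% B6. In WT both samples at 0 hr were above both after DOX, on these few reads, and in Hdac3KO the times overlapped. Bex4 had 5 of 607 and 6 of 574 in WT at 0 hr, and 0 of 278 and 1 of 242 after DOX. In the Hdac3KO samples Bex4 had 8 of 897 and 7 of 556 at 0 hr, and 0 of 373 and 1 of 346 after DOX. The Bex4 samples at 0 hr, with 5 to 8 B6 reads, were above those after DOX, with 0 or 1, in both genotypes.

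In the test across all genes (edgeR's quasi-likelihood test on B6 and Cast counts, Benjamini-Hochberg adjusted), the log2 B6:Cast ratio in WT at 0 hr was -7.44 ± 0.54 (SE) for Bex1 (adjusted p = 2e-12) and -6.70 ± 0.39 for Bex4 (adjusted p = 1.4e-13). These 2 were the members called of 8 tested, against 31.0% of all 9595 genes and 31.6% of 301 X-linked genes, and both held under all 15 alternatives. The other 6 members had ratios of -0.70 to 0.34, the lowest being Bex2 at -0.70 ± 0.36 (adjusted p = 0.15). So strong a skew was uncommon: 4 of 301 X-linked genes, Bex1, Bex4, Rhox5 and Gla, had a d-score under 0.02 in both WT samples at 0 hr, and 13 of 9148 autosomal genes did. Whether this skew lies in the cells or in how reads were placed and assigned was not tested.

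With so few B6 reads, the silencing of Bex1 and Bex4 could hardly be measured. The B6 share of Bex4 in WT was 0.931% (0.466% to 1.66%) at 0 hr and 0.192% (0.00487% to 1.07%) after DOX. In Hdac3KO it was 1.03% (0.579% to 1.70%) at 0 hr and 0.139% (0.00352% to 0.772%) after DOX. Both values after DOX rest on a single B6 read, and the difference between the genotypes' changes was -0.61 ± 1.86 (SE) on the log2 scale, an interval of -4.25 to 3.03. Its direction turned without replicate 2 of WT at 24 hr (1.81) or without replicate 1 of Hdac3KO at 24 hr (0.29). For Bex1 in WT, the share at 0 hr was 0.551% (0.222% to 1.13%). After DOX it was 0 of 554 reads, which allows up to 0.542% when 3 reads are taken as the limit of a count of 0, and up to 0.664% by the exact interval. Its allelic change with DOX in WT had an adjusted p of 0.80, and 0.048 when adjusted over X-linked genes alone.

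Bex2 was expressed from both alleles, and its reads were too few to fix the change in its B6 share in either genotype. In WT it had 12 B6 reads of 32 and 18 of 47 at 0 hr (d-scores of 0.375 and 0.383), and 8 of 22 and 3 of 13 after DOX (0.364 and 0.231). In Hdac3KO it had 20 of 57 and 13 of 40 at 0 hr (0.351 and 0.325), and 10 of 24 and 11 of 35 after DOX (0.417 and 0.314). The times overlapped in Hdac3KO. In WT both samples after DOX lay below both at 0 hr, replicate 1 only just, and the lowest value rests on 13 allelic reads. Over both samples the B6 share in WT was 38.0% (27.3% to 49.6%) at 0 hr and 31.4% (16.9% to 49.3%) at 24 hr. In Hdac3KO it was 34.0% (24.7% to 44.3%) at 0 hr and 35.6% (23.6% to 49.1%) at 24 hr. The log2 B6:Cast ratio changed by -0.42 ± 0.63 (SE) in WT and by 0.12 ± 0.53 in Hdac3KO. The WT interval of -1.66 to 0.82 includes no change and also the X-wide median of -1.32. The Hdac3KO interval of -0.92 to 1.155 likewise includes the X-wide median there, -0.57. The genotype difference was 0.53 ± 0.83, an interval of -1.08 to 2.15, and was -0.22 when set against the X-wide median shift. At this depth neither a lower share of Bex2 after DOX in WT nor a difference from Hdac3KO was detectable, so these reads do not bear out the contrast of Bex2 with Bex4 for which the genes were chosen.

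Tceal8 and Tceal9 were read from both alleles before DOX. Their B6 share fell in WT, and it was also lower after DOX in Hdac3KO, by less. Tceal8 had d-scores of 0.522 and 0.553 in WT at 0 hr, and 0.108 and 0.143 after DOX. In Hdac3KO they were 0.511 and 0.542 at 0 hr, and 0.352 and 0.262 after DOX. Neither genotype's times overlapped, and the Hdac3KO samples after DOX lay above the WT ones. Tceal9 had 0.488 and 0.525 in WT at 0 hr, and 0.179 and 0.137 after DOX. In Hdac3KO Tceal9 had 0.518 and 0.514 at 0 hr, and 0.268 and 0.253 after DOX. Each of these values rests on 154 to 601 allelic reads for Tceal8 and on 350 to 1219 for Tceal9, and for both genes all samples after DOX lay below all samples at 0 hr. In WT the log2 B6:Cast ratio fell by 3.06 ± 0.26 (SE) for Tceal8 (edgeR, adjusted p = 2.9e-07) and by 2.42 ± 0.16 for Tceal9 (adjusted p = 2.9e-08). In Hdac3KO it changed by -1.30 ± 0.21 for Tceal8 and -1.60 ± 0.15 for Tceal9. The genotype difference was 1.76 ± 0.34 for Tceal8 and 0.82 ± 0.22 for Tceal9, beside a median of 0.73 over 301 X-linked genes.

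Armcx1 fell in share in WT as well, and Armcx1 and Armcx2 both had lower d-scores after DOX in either genotype, Armcx2 on few reads. Armcx1 had d-scores of 0.509 and 0.404 in WT at 0 hr, and 0.153 and 0.109 after DOX. In Hdac3KO Armcx1 had 0.455 and 0.477 at 0 hr, and 0.221 and 0.188 after DOX. Its times did not overlap in either genotype, and the Hdac3KO samples after DOX lay above those of WT. The log2 ratio of Armcx1 in WT fell by 2.45 ± 0.30 (edgeR, adjusted p = 2.9e-05), and in Hdac3KO it changed by -1.73 ± 0.32. The genotype difference was 0.73 ± 0.44, with an interval of -0.14 to 1.59. Armcx2 had 26 B6 reads of 41 and 29 of 58 in WT at 0 hr, and 2 of 18 and 5 of 15 after DOX. In Hdac3KO it had 31 of 70 and 10 of 27 at 0 hr, and 3 of 20 and 2 of 17 after DOX. The log2 ratio of Armcx2 changed by -2.19 ± 0.74 in WT (adjusted p = 0.25) and by -2.15 ± 0.81 in Hdac3KO, and the difference was 0.04 ± 1.10, an interval of -2.12 to 2.20. For this gene the point values are nearly equal, and the interval still spans differences larger than the X-wide median.

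The B6 share of Bhlhb9 was lower after DOX in WT, while in Hdac3KO the times overlapped. Its d-scores were 0.471 and 0.524 in WT at 0 hr, and 0.177 and 0.256 after DOX. In Hdac3KO they were 0.506 and 0.412 at 0 hr, and 0.487 and 0.571 after DOX. The WT times did not overlap, and both Hdac3KO samples after DOX lay above both WT samples after DOX. The log2 B6:Cast ratio changed by -1.89 ± 0.43 (SE) in WT and by 0.39 ± 0.33 in Hdac3KO, a difference of 2.28 ± 0.54 with an interval of 1.23 to 3.34. These values rest on 39 to 170 allelic reads per sample, and Bhlhb9 was among the genes whose response was known when the cluster was chosen. In WT its B6 reads changed from 5.16 ± 0.47 to 1.26 ± 0.22 CPM (mean ± SD) and its Cast reads from 5.21 ± 0.31 to 4.62 ± 0.71. In Hdac3KO they changed from 4.68 ± 0.66 to 4.24 ± 1.39 (B6) and from 5.52 ± 0.70 to 3.67 ± 0.34 (Cast). The higher mean share in Hdac3KO thus went with fewer Cast reads, not with more B6 reads. Gprasp2, whose transcripts share stretches with Bhlhb9, had mean d-scores of 0.497 and 0.105 in WT before and after DOX, and of 0.401 and 0.405 in Hdac3KO. Its genotype difference was 3.03 ± 0.93, on 19 to 90 allelic reads per sample. Gprasp2 (135839034 to 135844730) lies within the annotated span of Bhlhb9 on the same strand, so the 2 are not separate loci. Gprasp2 is not among the 10 genes, and its share of reads with Bhlhb9 was not separated.

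**Figure D3:**
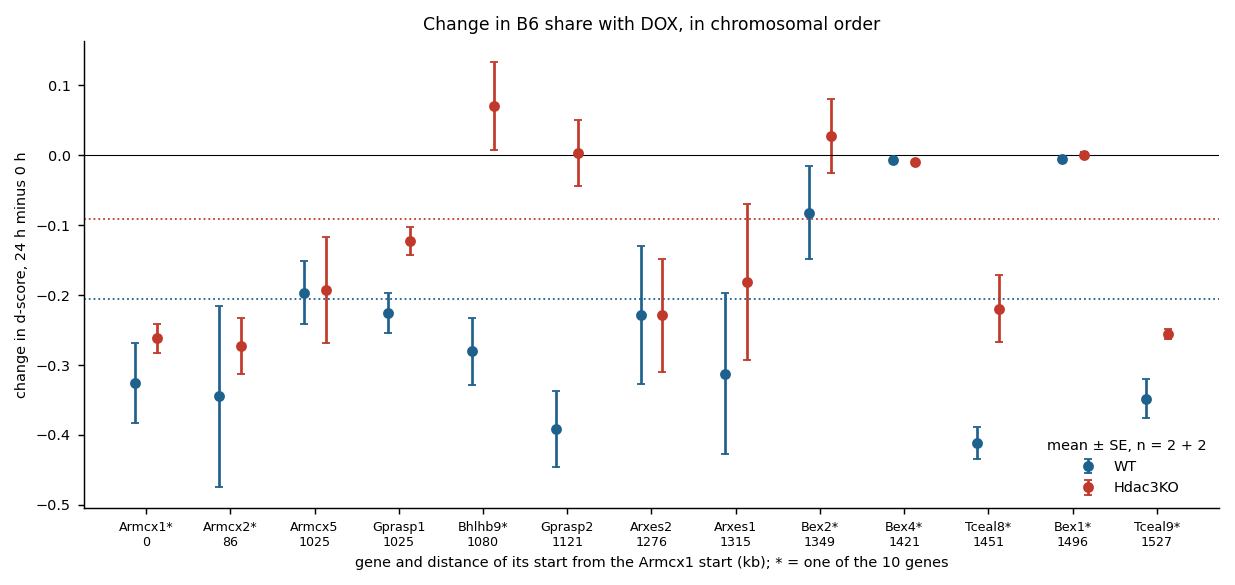
Change in d-score from 0 hr to 24 hr (mean difference ± SE from the SDs of both times, n = 2 + 2) for the 13 genes of the interval with allelic reads, in chromosomal order with the distance in kb from the Armcx1 start. Dotted lines give the X-wide median change, -0.206 in WT and -0.0912 in Hdac3KO. Bhlhb9 and Gprasp2 lie near or above 0 in Hdac3KO, and Bex1 and Bex4 lie at 0 in both genotypes.

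In counts, the allelic change with DOX in WT was tested for the 5 of 7 members with no known response that had enough reads (Bex1, Tceal8, Tceal9, Armcx1 and Armcx2). All 5 had a log2 change below 0, as did 296 of 301 X-linked genes. Of the 5, 3 were called, Tceal8, Tceal9 and Armcx1, each of which held under all 15 alternatives. Among all genes tested 154 (1.61%) were called, and 149 of 301 X-linked genes (49.5%) were. With adjustment over X-linked genes alone all 5 were called, beside 75.4% of X-linked genes. The share among the members is thus near that of the X chromosome. The median change of the 5 was -2.45 and that of the 301 X-linked genes -1.32. The genotype difference was used to choose Bex2 and Bex4, and the response of Bhlhb9 was known, so this difference is only described. It was above 0 for 7 of the 8 members measured, all but Bex4. The Bex1 value (3.77) has no usable error, with 0 B6 reads in WT after DOX. The median difference was 0.77 for the members, these genes included, and 0.73 for X-linked genes, of which 269 of 301 were above 0. The median of the members became 1.46 without replicate 2 of WT at 24 hr.

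Total reads were lower after DOX as well, also for Bex1 and Bex4, whose allelic reads were nearly all Cast. In WT total reads (log2 change ± SE, normalized by TMM) changed by -0.64 ± 0.11 for Bex1 and -0.66 ± 0.11 for Bex4. They changed by -0.75 ± 0.09 for Tceal8, -0.64 ± 0.13 for Tceal9, -0.84 ± 0.13 for Armcx1, -0.96 ± 0.17 for Bhlhb9 and -0.20 ± 0.23 for Bex2. All 7 tested members had a log2 change below 0, as did 541 of 582 X-linked genes. The median was -0.84 for the 7 and -0.54 for the X-linked genes. Tceal8 (edgeR, adjusted p = 0.026) and Armcx1 (adjusted p = 0.047) were called, against 0.210% of 13808 genes and 4.81% of X-linked genes, while Bex1 (adjusted p = 0.059) and Tceal9 (adjusted p = 0.10) were not. Neither call held when any 1 of the 4 WT libraries was left out, with adjusted p of 0.15 to 0.45 for Tceal8 and 0.28 to 0.56 for Armcx1. With the replicate number as a block 6 of the 7 were called. For Hdac3KO no test was made, and log2 changes of group means (CPM + 0.1) are given. Total reads changed by -0.84 for Tceal8, -0.88 for Armcx1, -0.83 for Armcx2, -0.59 for Bex4 and -0.57 for Bex1. They changed by -0.52 for Tceal9, -0.33 for Bex2 and -0.20 for Bhlhb9. By the same measure the median of 301 X-linked genes was -0.23 in Hdac3KO and -0.49 in WT. In bulk samples, fewer cells expressing a gene and less RNA per cell cannot be told apart.

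The alleles show where these reads went. In WT the B6 reads of Tceal8 changed from 20.0 ± 2.98 to 2.92 ± 0.29 CPM and its Cast reads from 17.2 ± 1.03 to 20.5 ± 2.51 (mean ± SD, n = 2). The B6 reads of Tceal9 changed from 41.3 ± 3.01 to 8.18 ± 1.93 and its Cast reads from 40.2 ± 1.24 to 43.3 ± 0.57. For both, the loss in WT lay on the B6 side. In Hdac3KO the B6 reads of Tceal8 changed from 17.9 ± 0.72 to 6.08 ± 1.36 CPM and its Cast reads from 16.15 ± 2.05 to 13.7 ± 1.075. Those of Tceal9 in Hdac3KO changed from 34.8 ± 4.32 to 12.1 ± 0.73 (B6) and from 32.6 ± 3.63 to 34.2 ± 0.27 (Cast). The Cast reads of Bex1, in contrast, were 47.5 and 51.9 CPM in WT at 0 hr, and 31.4 and 34.2 after DOX. In Hdac3KO the Cast reads of Bex1 were 52.5 and 46.4 at 0 hr, and 32.7 and 31.7 after DOX. The Cast reads of Bex4 were 44.7 and 47.2 in WT at 0 hr, and 27.9 and 34.2 after DOX. In Hdac3KO the Cast reads of Bex4 were 53.2 and 47.2 at 0 hr, and 32.8 and 34.6 after DOX. The times did not overlap for either gene in either genotype.

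As ratios of group means, with 0.1 added to each, Cast reads of Bex1 after DOX were 0.661 of those at 0 hr in WT and 0.652 in Hdac3KO. Those of Bex4 were 0.676 and 0.672. Over the 301 X-linked genes the median ratio of Cast reads was 0.995 in WT and 0.984 in Hdac3KO, and in WT 11 genes lay below Bex1 and 16 below Bex4. In Hdac3KO 4 genes lay below Bex1 and 8 below Bex4. No test of single alleles was made. The Cast X does not carry the induced Xist. The ratios of the genes' total reads in WT were 0.645 for Bex1 and 0.635 for Bex4. With nearly all their allelic reads on Cast, the Cast and total ratios are not independent, so their closeness adds no information. Whether reads from the B6 copy were counted as Cast was not tested. Low Cast ratios were also found in WT for neighbours read from both alleles: 0.695 for Armcx4, 0.738 for Bex2 and 0.739 for Arxes1. In Hdac3KO these were 0.830, 0.811 and 0.861. The other measured neighbours had WT ratios of 0.856 (Gprasp1) to 1.26 (Armcx5). Cast reads of Bhlhb9 had ratios of 0.889 in WT and 0.671 in Hdac3KO, and those of Armcx1 0.918 and 0.733.

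**Figure D4:**
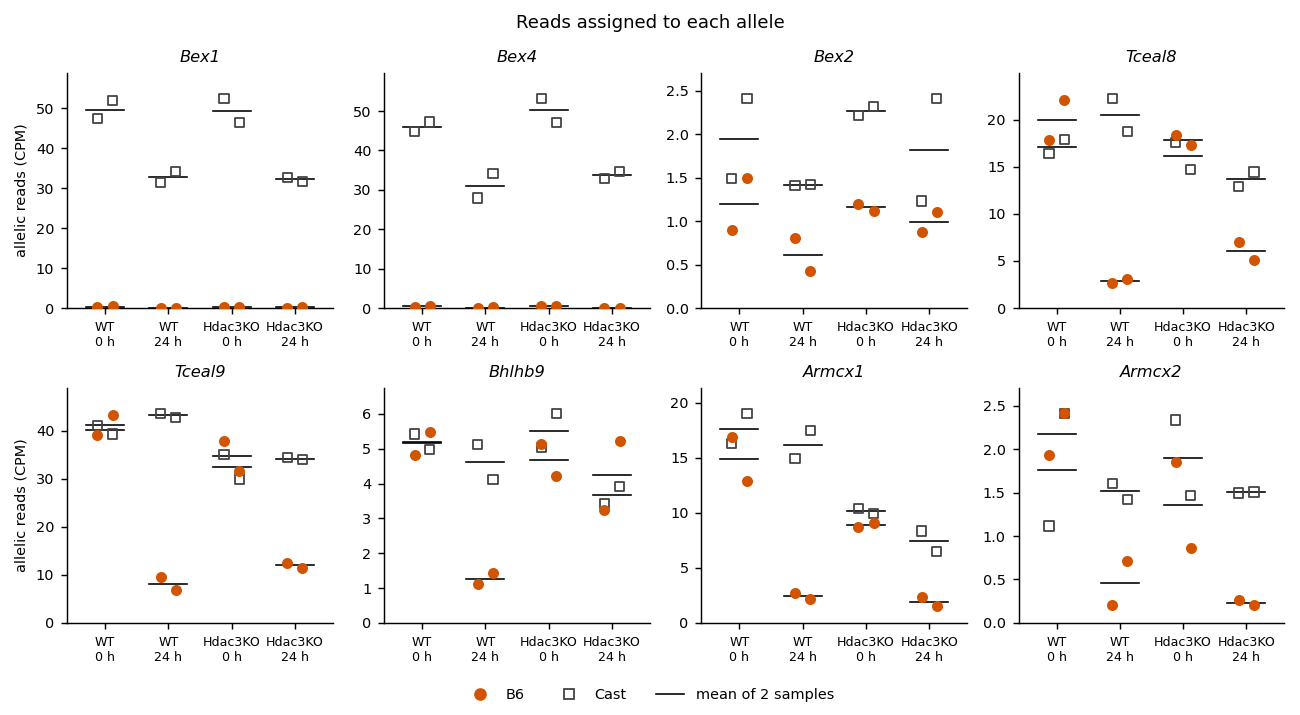
Reads (CPM) assigned to the B6 (filled circles) and Cast (open squares) allele of each gene in each sample, with group means as lines and each vertical axis starting at 0. B6 points lie lower after DOX in both genotypes for Tceal8, Tceal9, Armcx1, Armcx2, Bex2 and Bex4. For Bex2 in Hdac3KO this is only just so, and for Bex4 it rests on few B6 reads. Cast points lie lower in both genotypes for Bex1 and Bex4, from 44.7 to 53.2 CPM at 0 hr and from 27.9 to 34.6 after DOX. They also lie lower for Bhlhb9, Armcx1 and, only just, Tceal8 in Hdac3KO, and for Bex2 in WT.

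**Figure D5:**
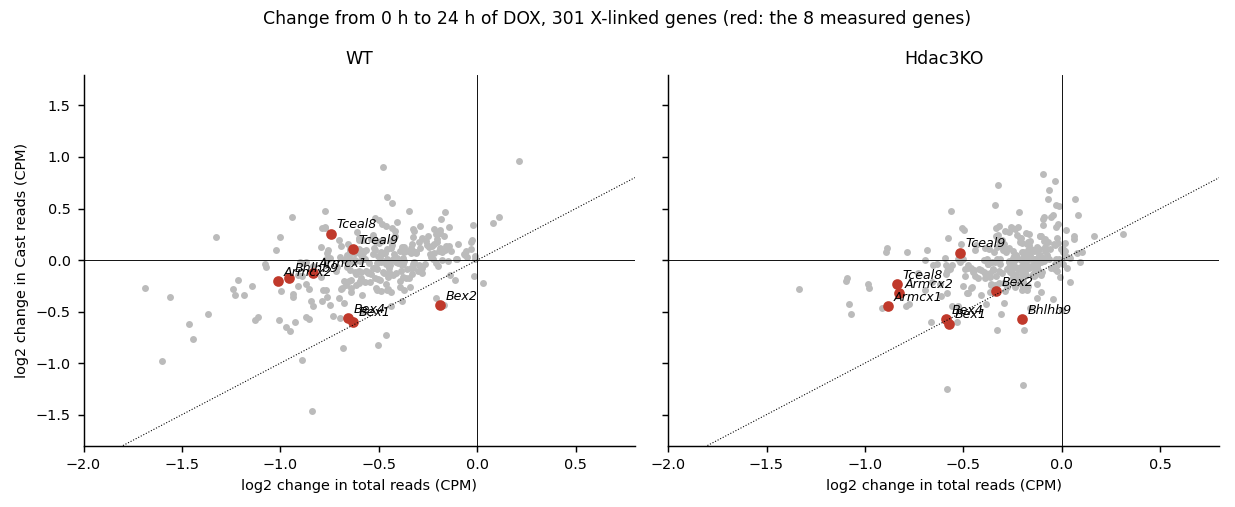
Log2 change from 0 hr to 24 hr in Cast reads against total reads (group means of CPM + 0.1) for 301 X-linked genes, with the 8 measured genes in red and a dotted line where both changes are equal. Bex1 and Bex4, whose allelic reads are nearly all Cast, lie close to that line, near -0.6, in both genotypes. Tceal9 lies above it with Cast changes of 0.11 in WT and 0.07 in Hdac3KO.

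Before DOX the share of these genes called as different in level between the genotypes was near that of all genes. With 2 samples per group, genes that were not called are not shown to be unchanged. In the comparison of Hdac3KO with WT at 0 hr (edgeR's quasi-likelihood test on total reads, 4 samples), 1 of 10 members was called, against 13.6% of 13227 genes and 21.5% of X-linked genes. This was Armcx1, which was at 70.8 and 70.1 CPM in WT and at 42.8 and 38.3 in Hdac3KO. Its groups did not overlap, and its log2 change was -0.80 ± 0.12 (SE, adjusted p = 0.0053). The adjusted p was 0.064 without replicate 1 and 0.055 without replicate 2 of WT at 0 hr. Both alleles of Armcx1 were lower: B6 reads were 14.9 ± 2.81 CPM in WT and 8.90 ± 0.31 in Hdac3KO, and Cast reads 17.7 ± 1.96 and 10.2 ± 0.31. Armcx4, which starts upstream of Armcx1, was lower too, by -0.95 ± 0.12 on the log2 scale (adjusted p = 0.003). It was the 1 gene called of 8 tested Bex, Tceal, Armcx and Gprasp genes outside the 10. Of 8 tested genes of other families that start between the first and last member, 3 were called higher and 1 lower. The lower one was Arxes2 (-0.71 ± 0.19, adjusted p = 0.049). The other 9 members had log2 differences of -0.24 (Tceal9, adjusted p = 0.21) to 0.35 (Tceal1, adjusted p = 0.63). Without replicate 1 of Hdac3KO at 0 hr Tceal9 was called as well (-0.37, adjusted p = 0.011).

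The B6:Cast ratio before DOX did not pass the test between genotypes for any of the 8 members (edgeR, adjusted p of 0.71 to 0.98, 0 of 8 at an unadjusted p under 0.05, and 0 of 8 by limma). DESeq2 called 0 of 6, and gave no adjusted p for Bex2 and Armcx2. Among all genes 0.667% were called. The log2 differences of Tceal8 (-0.08 ± 0.18 SE), Tceal9 (0.06 ± 0.13) and Armcx1 (0.04 ± 0.22) had the narrowest errors. That of Armcx2 was -0.81 ± 0.51, an interval of -1.81 to 0.19, and is poorly fixed.

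Of the wider Bex, Tceal, Armcx and Gprasp families the tables hold 21 genes, 11 of them not among the 10. The list was taken by symbol with earlier results known. Of these 11, 4 had enough allelic reads (Armcx4, Armcx5, Gprasp1 and Gprasp2), and all 4 had a lower B6:Cast ratio after DOX in WT, with 3 called. Among 301 X-linked genes 296 had a lower ratio and 149 (49.5%) were called, so these 4 do not stand apart by count. The log2 changes were -2.96 ± 0.45 for Armcx4 (adjusted p = 0.00019), -1.68 ± 0.24 for Gprasp1 (adjusted p = 0.00018), -2.99 ± 0.80 for Gprasp2 (adjusted p = 0.027) and -1.23 ± 0.54 for Armcx5 (adjusted p = 0.76). In Hdac3KO the change was 0.05 ± 0.47 for Gprasp2, -0.71 ± 0.19 for Gprasp1, -1.71 ± 0.40 for Armcx4 and -1.25 ± 0.50 for Armcx5. Bex3 had 2065 to 8504 total reads per sample but 0 to 9 allelic reads, so its alleles were not measured, and its total reads changed by -0.52 ± 0.08 with DOX in WT (adjusted p = 0.059). The interval from the first to the last member holds 41 annotated genes of the tables, 13 of them with enough allelic reads. Arxes1 and Arxes2 are the 2 that belong to none of these families. They had log2 allelic changes of -2.09 ± 0.68 (adjusted p = 0.19) and -1.47 ± 0.57 (adjusted p = 0.55) in WT.

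By the distance between d-scores over the 8 samples, the X-linked genes most like Bex2, of 300 searched, were Ndufb11 (distance of 0.184), Siah1b (0.186) and Tbc1d25 (0.192). Ndufb11, on 297 to 791 allelic reads, had d-scores of 0.303 to 0.440. The genes most like Bex4 were Bex1 (0.0138), Rhox5 (0.0189) and Gla (0.0210), the other X-linked genes with nearly no B6 reads.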

How the data were processed

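RNA was sequenced in 8 samples, 2 in each of 4 groups taken from the labels. Per the labels and the methods, the authors depleted rRNA, mapped read pairs with TopHat2 2.1.0 to mm10, kept 1 alignment per read, and counted by strand with featureCounts 1.5.1. The deposited values are raw counts per gene symbol (all reads, B6 reads, Cast reads). The deposited d-score, a fraction, is B6/(B6+Cast) at 10 or more allelic reads. The methods name SNPsplit and a genome masked at strain differences for the other assays. How RNA-seq reads were split by allele is not given in the sources used here. The 10 genes and all gene lists were chosen with earlier results of these data known.

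Total counts were tested with edgeR 4.0.16 (R 4.3.3; TMM; quasi-likelihood) for genes above 1 TPM in at least 2 samples, using the 4 samples at 0 hr for genotype and all 8 for DOX. Allelic counts of genes with at least 10 allelic reads in all 8 samples were fitted with an effect for each sample and a B6 term for each group, leaving 4 residual degrees of freedom. Benjamini-Hochberg adjustment ran over all genes tested, with a threshold of 0.05, and intervals are normal 95% intervals from the SE. Named genes were the 10 members, the family and interval genes with enough allelic reads, Hdac3 and Xist as checks, and the 3 X-linked genes nearest to Bex2 and to Bex4 by Euclidean distance. Bex3, which lacks allelic reads, was named after its values were seen. Positions and TPM lengths came from GENCODE M21, where 660 of 24542 symbols had no match. The tests were checked on simulated data. Replicates of each group differed by more than sampling noise (chi-square per degree of freedom of 3.94 to 12.9). Alternatives were DESeq2 1.42.0, limma 3.58.1, other filters, the replicate block, X-wide centring and leaving out each sample. Total reads of 6940375 to 17125156 per sample set the precision, and 13 to 57 allelic reads limit Bex2. Plots used matplotlib 3.10.9 and sequence comparisons Biopython 1.88.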

Additional observations from a re-analysis of the deposited data

Results flagged for a closer look

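The mean d-score of Bhlhb9 after DOX lay on opposite sides of its value at 0 hr in the 2 genotypes. Both WT samples after DOX lay below the WT mean at 0 hr, by -0.281 on average, and both Hdac3KO samples after DOX lay above the Hdac3KO mean at 0 hr, by 0.0703 on average. The Hdac3KO times overlapped, with d-scores of 0.506 and 0.412 at 0 hr and 0.487 and 0.571 after DOX, so that a rise is not shown there. Mean B6 reads in Hdac3KO were 4.68 CPM at 0 hr and 4.24 after DOX, and mean Cast reads were 5.52 and 3.67. The difference between genotypes was not tested, since Bhlhb9 was among the genes whose response was known when the cluster was chosen.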

How the results depend on the processing

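The counts of members called for the allelic results held under most settings: 0 for the genotype ratio at 0 hr and 2 for the bias in WT under every alternative run, and 3 for the change with DOX in WT under all but adjustment over X-linked genes (5). Bex2 and Armcx2 were not tested with a minimum of 30 allelic reads, and DESeq2 gave them no adjusted p for the genotype ratio. For total reads at 0 hr, 1 member was called, and 0 when an absolute log2 change above 1 was also asked. For total reads with DOX in WT, 2 members were called, and the count was 4 with DESeq2, 5 with no filter, 1 with voom and limma and 0 with the fold threshold. Over all genes, total expression at 0 hr had 1795 calls, and 3107 with no filter or 819 with the fold threshold. The DOX comparison of totals had 29, and 115 with DESeq2, 275 with no filter, 12 with voom and limma and 7 with the fold threshold. The genotype ratio at 0 hr had 64, and 20 with DESeq2, 2 with limma on the log2 ratio, 182 with no filter, and, among X-linked genes, 1 relative to the X median and 3 with adjustment over X-linked genes. The bias in WT had 2976, and 1862 with DESeq2, 1816 with limma, and, among X-linked genes, 91 relative to the X median and 95 with adjustment over them. The allelic change with DOX had 154, and 94 with limma. The median genotype difference of the 8 members, a description that includes the genes chosen by it, was 0.77, and -0.0025 relative to the X median. Where values moved, the cause was not tested, apart from filters and thresholds that change which genes enter.

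The samples share replicate numbers, and nothing says that a number marks a shared culture or clone. With a replicate block, total calls were 2946 at 0 hr and 1532 with DOX (6 of 7 members), and the genotype ratio at 0 hr had 109. It changed no other count of calls by over 1.5 times. Same-numbered samples deviated together in total reads, most between 0 hr and 24 hr in Hdac3KO (r of 0.70) and less between the other groups compared (0.23 to 0.34). In the allelic ratio they hardly did so (0.18 between 0 hr and 24 hr in Hdac3KO, otherwise -0.01 to 0.01). Whether the number marks the clone in Hdac3KO was not tested. These r values are correlations across genes, which are not independent.

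Leaving out each sample in turn, with the lone sample of an arm assumed to vary like the other groups, gave 0 to 2 members called for total reads at 0 hr and 0 to 4 with DOX. Over all genes the calls ranged from 325 to 3361 for totals at 0 hr, 2 to 84 for totals with DOX, 12 to 121 for the genotype ratio, 1603 to 3091 for the bias and 82 to 158 for the allelic change with DOX. The median genotype difference of the members ranged from 0.65 to 1.46, the highest without replicate 2 of WT at 24 hr. Depth limits Bex2 (13 to 57 allelic reads per sample), Armcx2 (15 to 70) and the B6 reads of Bex1 and Bex4 (0 to 8).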
